A study of Mus musculus with 2 samples.

Results

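The nuclear genome encodes most subunits of the mitochondrial respiratory chain, and these genes were followed in interstitial cells of the infarcted mouse ventricle. A gene was a member when its symbol began with Ndufa, Ndufb, Ndufc, Ndufs, Ndufv, Uqcr, Cox4i, Cox5, Cox6, Cox7, Cox8 or Atp5, or was Sdha, Sdhb, Sdhc or Sdhd. Assembly factors (Ndufaf) and symbols with "-ps" were left out. This gave 84 members of the 15181 genes found in any of the 22 deposited tables, namely 40 of complex I, 4 of complex II, 8 of complex III, 15 of complex IV and 17 of complex V. Complexes were assigned by the start of the symbol and not checked otherwise. Complex I therefore holds every member with an Nduf symbol, including Ndufa4, Ndufa4l2 and the intronless copy Ndufb4c. The Atp5if1, Cox8b and Cox8c symbols were not found in any table.

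One library per genotype was compared. PostnMCM control mice carry the tamoxifen-inducible MerCreMer recombinase at the Postn locus, which becomes active in fibroblasts that turn into myofibroblasts after injury. The other mice were Yapfl/fl;Wwtr1fl/+;PostnMCM, so that Cre can remove both alleles of Yap1 but only 1 of the alleles of Wwtr1, the gene for TAZ. All mice were adult, carried the R26-eGFP reporter, had myocardial infarction (MI) and ate chow with 0.4 g/kg tamoxifen citrate from the surgery on. The labels place collection at day 6 after MI, while the methods give a time 1 day later. Cardiomyocytes were strained away and viable nucleated cells were sorted, so Cre-targeted fibroblasts were only 1 cell type among many. With 1 library per genotype there was no replicate and no test, and every value below describes these 2 libraries. The tables state neither cell numbers nor counts, so no interval is given for a share of cells. The spacing of the shares shows that some tables are coarse. In cluster 17 the shares of all 1914 genes took 21 distinct values in control, 5 percentage points apart, and 12 in the other library, 9.0 to 9.1 points apart. Control shares took 12 values in clusters 10 and 18 and 18 in cluster 9, and shares of the other library took 11 in fibroblast subcluster 4, 10 points apart. Few cells lie behind the values of these tables, and small steps in them carry little weight. By contrast cluster 0 had 435 and 410 distinct shares.

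By fold change Yap1 was not lower in the library labelled Yap/Wwtr1-depleted. In fibroblast subclusters 0, 3, 4 and 5 the log2 fold change of Yap1 was 0.07, 0.31, 0.04 and 0.26. Its share of cells was higher in 3 of them and lower in subcluster 4, at 57.5% in control and 40% in the other library. Yap1 was detected in 46.2%, 23.3%, 57.5% and 30.4% of control cells of these subclusters. For Wwtr1 the log2 fold change was 0.15, -0.30, -0.21 and -0.16. For Postn, the gene that drives Cre, it was 0.43, 0.19, -0.15 and 1.0. None of the 3 genes is listed in a cluster table. Whether Cre had removed the alleles was not tested. The second library is therefore called the library labelled depleted and its cells depleted-label cells. A log2 fold change is always that library over control. Cluster names are the study's. Of the fixed markers, the fibroblast table (cluster 5) lists Dcn in 99.7% of control cells and 100% of depleted-label cells, and the T cell clusters (4, 7, 8 and 10) list Cd3g at 91.2% or more in both libraries. Neutrophil and macrophage markers differed broadly. Of 31 listings of 5 neutrophil markers in the clusters, 28 were lower, as were 21 of 24 listings of 6 macrophage markers, beside 52.3% of all listings. These counts cover clusters of the markers' own cell types and of other types. The part of these markers in the results was not tested.

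The respiratory chain passes electrons from NADH (complex I) and succinate (complex II) through complex III and cytochrome c to oxygen at complex IV, pumping protons that drive ATP synthase (complex V). Its subunits come from nuclear and mitochondrial genes, and the nuclear ones are spread over many chromosomes. NRF1, ETS-family factors of the NRF2/GABP type and YY1 are known to bind at many of their promoters.

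Promoters are shown for Atp5k (subunit e of ATP synthase) and Ndufa3 (a complex I accessory subunit), each listed higher in 8 cluster tables, and for Ndufa12, a complex I accessory subunit listed lower in 8. Each line runs from 150 bases before the start site to 30 after it on GRCm38.p6, 5′ to 3′, from RefSeq. Capitals mark matches to CCGGAAG (ETS), GCATGCGC (NRF1) or AAGATGGC (YY1) on either strand, and overlapping matches run together.
Atp5k, chr5:108434370-108434549, minus strand: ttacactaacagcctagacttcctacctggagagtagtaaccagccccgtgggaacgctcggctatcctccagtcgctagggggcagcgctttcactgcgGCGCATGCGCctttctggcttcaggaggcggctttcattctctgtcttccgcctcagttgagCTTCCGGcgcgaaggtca
Ndufa3, chr7:3617223-3617402, plus strand: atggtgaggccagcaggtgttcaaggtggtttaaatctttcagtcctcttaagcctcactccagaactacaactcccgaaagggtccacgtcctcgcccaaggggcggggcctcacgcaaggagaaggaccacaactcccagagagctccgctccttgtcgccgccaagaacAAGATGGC
Ndufa12, chr10:94198885-94199064, plus strand: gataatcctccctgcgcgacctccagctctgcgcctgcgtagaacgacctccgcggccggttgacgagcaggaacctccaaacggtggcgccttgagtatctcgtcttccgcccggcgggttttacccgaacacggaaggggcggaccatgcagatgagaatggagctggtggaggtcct
Atp5k held 1 ETS and 2 overlapping NRF1 matches, Ndufa3 held 1 YY1 match, and Ndufa12 held none of these letters. Matches did not follow direction in other members at the ends. Over the full 300 bases Ndufb1, also listed higher in 8, held none. Atp5j2, listed lower in 6, held 1 YY1 match. Among the 68 members with a RefSeq promoter (300 bases, 250 of them before the start), 23.5% held the ETS letters, 14.7% the NRF1 letters and 13.2% the YY1 letters. Over all 27025 promoters the shares were 9.12%, 2.8% and 2.88%. Over the 6811 promoters of genes detected in at least 25% of cells in subcluster 0 they were 20.3%, 5.99% and 5.33%. Members with none of the 3 motifs numbered 38, and 56.9% of their 116 listings were lower. For members with ETS, NRF1 or YY1 letters the shares of listings that were lower were 43.9% of 41, 36.4% of 33 and 44.8% of 29. Over all listed genes with a RefSeq promoter the shares were 51.5% with none of the motifs, 57.3% with ETS, 52% with NRF1 and 47.6% with YY1 letters. No test was made of these gaps, and a member with several listings counts several times. A match is a run of letters and not a measured binding site.

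The coding sequence of Ndufb4, a complex I accessory subunit, is repeated without a difference in Ndufb4c, an intronless copy that is itself a member. The first 120 of its 390 bases are shown because both genes appear below with opposite directions. Capitals mark the start codon.
Ndufb4c, GRCm39 chr15:73681626-73681745, minus strand: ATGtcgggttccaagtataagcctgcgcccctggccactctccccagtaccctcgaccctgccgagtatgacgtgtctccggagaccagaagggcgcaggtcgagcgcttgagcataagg

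Across the 18 cluster tables, members were listed in both directions. These tables list a gene only when its average log2 fold change reached 0.25 in size and 1 of the libraries had it in 25% of cells or more, so an unlisted member has no value there. The members had 240 listings, 117 lower and 123 higher in the library labelled depleted. Lower listings thus made up 48.8%, beside 52.3% over all 15431 listings of all genes. Of the 240, 29 reached 0.5 in size (12.1%) and none reached 1, beside 16.8% and 1.86% of all listings, and the largest was 0.82. At least 1 cluster listed 76 of the 84 members (90.5%), beside 42.7% of all genes. This background is not matched for detection, which a listing requires. Over clusters and subclusters together, 83 of the 84 members reached 25% of cells in 1 library or both. Among all 15181 genes, only 11355 did so. The gap between 90.5% and 42.7% therefore does not show that members differed between the libraries more often than other genes. Of the 76 listed members, 36 were lower in some clusters and higher in others (47.4%), 20 only lower and 20 only higher (26.3% each). Of all 6477 listed genes 32.8% went both ways, 36.8% were only lower and 30.4% only higher. Among genes listed in at least 3 tables, a limit chosen after seeing the data, the share with both directions was 68.3% for members and 68.2% for all. By complex, the share that was lower was smallest in complex III, with 7 of 19 listings (36.8%). Complex I had 54 of 110 lower (49.1%), complex II 5 of 9 (55.6%), complex IV 21 of 39 (53.8%) and complex V 30 of 63 (47.6%).

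The split differed from cluster to cluster. In cluster 0, the largest list of a macrophage or monocyte table, all 20 members listed were lower, beside 38.4% of all genes listed there. These 20 also had a lower share of cells with a count. They came from complexes I (8), III (2), IV (4) and V (6), with log2 fold changes between -0.45 and -0.26. Ndufs5, a complex I subunit of the intermembrane space side, was detected in 67.4% of control cells and 36.1% of depleted-label cells (-0.45). Atp5d, the delta subunit of the central stalk of ATP synthase, went from 94.8% to 84.2% (-0.41), and Cox8a of complex IV from 99.5% to 96% (-0.41). Ndufb9 went from 91.3% to 76.2% (-0.35). All 55 cytosolic ribosomal protein genes listed there were lower too, and so were all 10 glycolysis genes, among them Aldoa (-1.03), Eno1 (-0.92) and Pgam1 (-0.85). Transcripts of other cells were lower in the same table, S100a8 from 68.3% to 34.3% of cells (-0.81), S100a9 from 54.8% to 20.3% (-0.68) and Hbb-bs from 25.8% to 4.6% (-0.31). Of the macrophage markers, Lyz2 (-0.72) and Cd68 (-0.27) were lower and Adgre1 higher (0.30). The part of these differences in the member values was not tested. The median of all genes listed there was 0.28, against -0.33 for the members.

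The other macrophage or monocyte tables did not share 1 direction. Cluster 12 listed 11 members lower and 1 higher, with 53.1% of all its genes lower. By share of cells 8 of the 12 were lower, 3 higher and 1 equal, and the median share was 84.9% in control and 87.9% in the other library. Cox8a, for example, had a lower fold change (-0.37) but a higher share, from 95.8% to 98.7%. The largest falls in share were those of Sdhc and Sdhd, the membrane anchors of complex II, which were detected in 31.2% and 37.5% of control cells and in 11.4% and 21.5% of depleted-label cells. Lyz2 (-1.11), S100a9 (-0.86), S100a8 (-0.52), Dcn (-0.45) and Col3a1 (-0.35) were lower in cluster 12 too, and their part in the member values was not tested. Cluster 3 listed 2 members, both lower (39.6% of all genes lower), and cluster 13 listed 6 lower and 5 higher (40.9% lower). Cluster 11 ran the other way, with 13 of 14 members higher beside 46.5% of all genes. Its highest were Ndufa3, from 82.6% to 95.8% of cells (0.49), and Cox6c, from 97.9% to 100% (0.38). In cluster 11 all 5 neutrophil markers and 4 of 6 macrophage markers were listed lower, among them S100a8, from 59.7% to 27.1% of cells (-2.99), Retnlg, from 37.5% to 8.3% (-2.75), Lyz2, from 76.4% to 45.8% (-2.15), and Csf1r, from 79.2% to 50% (-0.68). Their part in the member values was not tested.

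Cluster 17, the dendritic cells, listed more members than any other table. It held 36 of them, 32 higher and 4 lower, while 41.4% of all its 1914 listed genes were higher. Ndufb2 (0.82), Ndufa3 (0.81), Ndufb7 (0.76) and Uqcrc1 (0.76) led. Uqcrc1, a core protein of complex III, was detected in 35% of control cells and 90.9% of depleted-label cells. Ndufb2 went from 70% to 90.9%. Uqcrfs1, the Rieske iron-sulphur protein of complex III, went from 65% to 81.8% (0.47), and Sdhb, the iron-sulphur subunit of complex II, from 40% to 72.7% (0.33). All 9 ATP synthase members listed were higher, from 0.26 to 0.59. The 4 lower members were Uqcrh (-0.37), Ndufb4 (-0.36), Cox7a2l (-0.33) and Ndufv1 (-0.31). Cytosolic ribosomal protein genes were split there, with 9 lower and 10 higher. Markers of other cells differed there too. The fibroblast collagen Col3a1 (-0.63) and the haemoglobin gene Hbb-bs (-0.49) were each detected in 35% of control cells and none of the other library, and Lyz2 went from 70% to 54.5% (-1.10). The neutrophil genes S100a8 (1.17) and S100a9 (0.68) were higher by fold change but lower by share, from 25% to 9.1% and from 50% to 27.3%. The part of these transcripts in the member values was not tested.

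Neutrophil cluster 18 listed 29 members, 20 lower and 9 higher, beside 61.9% of all genes lower. Uqcrq of complex III (-0.63), Atp5l, subunit g of ATP synthase (-0.60), and Cox7b (-0.57) were lowest. Cox7b was detected in 81.8% of control cells and 41.2% of depleted-label cells, and Sdhd in 54.5% and 11.8%. Atp5k ran against the rest, from 54.5% to 88.2% of cells (0.64), as did Cox7a2l, from 45.5% to 64.7% (0.64), and Ndufa2, from 36.4% to 70.6% (0.52). Of the cytosolic ribosomal protein genes listed in cluster 18, 41 were higher and 3 lower. Hbb-bs, from 36.4% to 0% of cells (-0.71), Col3a1, from 36.4% to 5.9% (-0.31), and Lyz2, at 100% in both (-0.49), were lower there, and their part in the member values was not tested. The larger neutrophil table, cluster 1, listed 1 member, which was lower (41.3% of all genes lower).

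**Figure D1:**
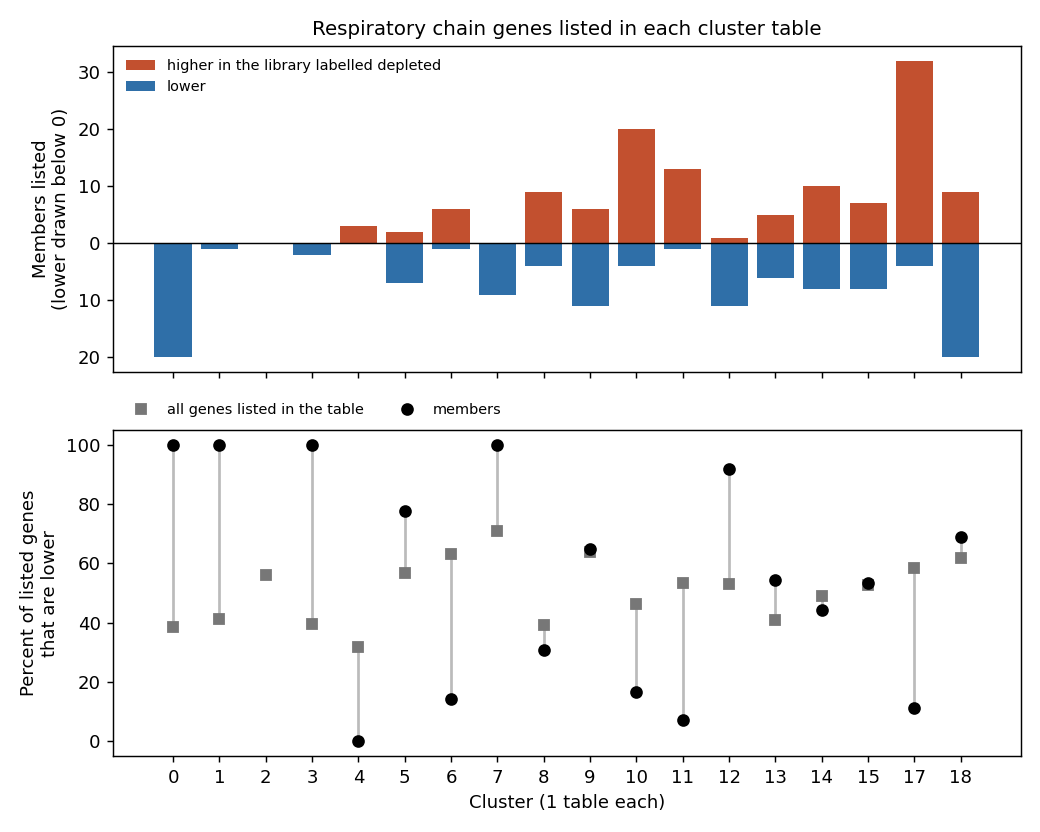
Members listed in each of the 18 cluster tables (upper panel, number of members, higher above 0 and lower below it) and the percent of listed genes that are lower (lower panel, members as circles and all listed genes as squares). Cluster 0 lists 20 members, all lower, and cluster 17 lists 32 higher and 4 lower, while all genes of those tables are lower in 38.4% and 58.6% of cases.

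T cell tables differed among themselves. Cluster 7 listed 9 members, all lower, beside 70.8% of all genes, led by Ndufa8, from 60.6% to 42.8% of cells (-0.36). Relative to the median of all genes listed there, -0.29, only 55.6% of the 9 were lower. S100a9, from 67.7% to 46.5% of cells (-1.56), S100a8, from 63.6% to 40.3% (-1.27), and Col3a1, from 32.3% to 12.6% (-0.39), were lower there as well. Cluster 10, which holds mainly cells of the depleted genotype and carries proliferation markers, listed 20 members higher and 4 lower, beside 53.7% of all genes higher. By share of cells 14 were higher, 9 lower and 1 equal. Its highest were Atp5md, from 81.8% to 100% (0.63), Ndufv2, from 72.7% to 81.7% (0.59), and Cox6c, at 100% in both libraries (0.58). All 3 complex II members listed there were higher, Sdha from 45.5% to 69.4%, Sdhb from 72.7% to 81.2% and Sdhd from 36.4% to 66.7%. Markers of other cells were lower in cluster 10, among them Lyz2, from 54.5% to 28% (-1.07), and Col3a1, from 45.5% to 17.2% (-0.64). The part of these markers in the member values of clusters 7 and 10 was not tested. Cluster 8 listed 9 higher and 4 lower (60.8% of all genes higher) and cluster 4 listed 3, all higher (68.2% higher). Clusters 6 and 9, also mainly from the depleted genotype, listed 6 of 7 higher (36.7% of all genes higher) and 11 of 17 lower (63.7% lower). The natural killer table, cluster 14, had 10 higher and 8 lower (50.9% higher). Cluster 15, which the study left unnamed, had 8 lower and 7 higher (52.7% lower). The B cell table, cluster 2, listed no member.

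Members are detected in most cells, so the tables were also read for genes with a mean share of at least 50% of cells, an alternative chosen after seeing the data. The member counts and the backgrounds were then 20 of 20 lower beside 45.8% in cluster 0, 7 of 7 lower beside 74.6% in cluster 7, and 8 of 9 lower beside 59.7% in cluster 12. They were 19 of 22 higher beside 54.1% in cluster 10, 12 of 13 higher beside 54% in cluster 11, and 32 of 34 higher beside 56.3% in cluster 17. In cluster 18 they were 14 of 20 lower beside 64.2%, a share near the background. The genes of a complex are not independent of each other, and no test was made of these gaps.

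Ndufa12 was listed lower in 8 cluster tables and higher in 1, the most lower listings of any member. Of the 8, 3 had a mean share of at least 50% of cells and 0 reached 0.5 in size. In cluster 0 it was detected in 72.1% of control cells and 54.1% of depleted-label cells, in cluster 3 in 72% and 51.3%, and in cluster 14 in 57% and 38.5%. Its 8 lower values lay between -0.37 and -0.26, and the exception was cluster 17, from 60% to 90.9% (0.54). Atp5j2, subunit f of ATP synthase, was lower in 6 and higher in 1, again cluster 17. Atp5d was lower in 4 and higher in 2, and Ndufb4 lower in all 4 tables that list it. Atp5g1 was lower in all 4 tables that list it too, and this tie was settled by the mean size of the values. Cox7a2l, which helps to join complexes III and IV into supercomplexes, was lower in 5 and higher in 3, from -0.54 in cluster 13 to 0.64 in cluster 18.

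In the other direction, Cox6c, Ndufa3, Atp5k and Ndufb1 were each listed higher in 8 cluster tables and lower in none, and Atp5md higher in 5 and lower in 1. Cox6c, an accessory subunit of complex IV, ranged from 0.26 in cluster 6 to 0.58 in cluster 10, and Atp5k from 0.28 in cluster 17 to 0.64 in cluster 18. Atp5k also had a higher share of cells in all 8 tables, for example 70.2% of control cells and 85.4% of depleted-label cells in cluster 8. Cox6c and Ndufb1 were detected in at least 90.9% of cells wherever they were listed, apart from Cox6c in cluster 18 (81.8% and 82.4%), and their shares did not always follow the fold change. By shares Cox6c was higher in 4 and lower in 2 of its tables, Ndufa3 higher in 5 and lower in 2, and Ndufb1 higher in 3 and lower in 3. No member was chosen for these counts other than by being at an end of the ranking, so the counts describe the ends and test nothing.

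**Figure D2:**
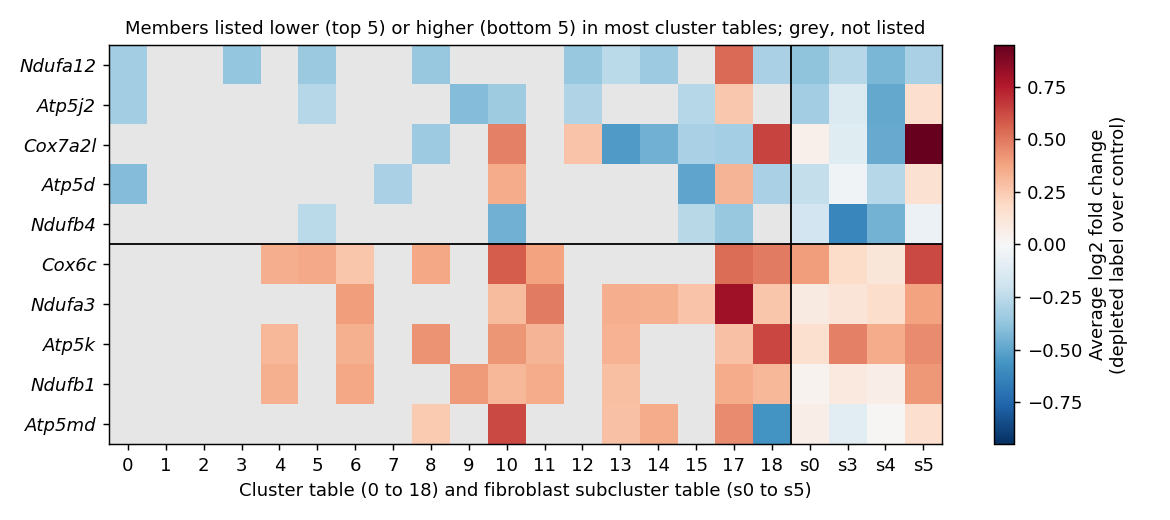
Average log2 fold change (colour) of the 5 members listed lower and the 5 listed higher in most cluster tables, ties settled by mean size. Columns are the 18 cluster tables and the 4 fibroblast subcluster tables (s0 to s5), and grey means not listed. Cox6c, Ndufa3, Atp5k and Ndufb1 have no lower value, while Ndufa12 is lower in 8 cluster tables and all 4 subclusters and higher in cluster 17.

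Fibroblasts, the cells in which Cre is driven, listed 9 members in cluster 5, 7 lower and 2 higher (56.7% of all genes lower). Of the lower ones, 4 belong to ATP synthase. Atp5g1, which encodes the c subunit of the rotor ring, was detected in 97% of control cells and 93.6% of depleted-label cells (-0.35). Atp5b, the catalytic beta subunit, went from 99% to 97.9% (-0.28), Atp5h, a peripheral stalk subunit, from 99% to 95.7% (-0.27), and Atp5j2 from 98.3% to 96.8% (-0.27). Ndufa12 went from 89.3% to 80.7% (-0.35), Cox6a1, the general isoform of complex IV subunit VIa, from 86.9% to 74.3% (-0.32), and Ndufb4 from 45% to 26.7% (-0.26). The 2 higher members were Cox6c, from 99.3% to 98.9% of cells (0.36), and Ndufa6, from 83.6% to 94.7% (0.33). No complex II or complex III member was listed. The cardiomyocyte marker Fabp3 was lower in the same table, as were S100a9, from 49.7% to 9.1% of cells, and S100a8, from 32.6% to 5.9%. Fibroblast markers were higher, Pdgfra from 47.7% to 84% (1.12) and Lum from 29.9% to 40.1% (0.86). The genotypes contributed unequally to the fibroblast subclusters, so the fibroblast table compares different mixtures of states. The part of these differences in the member values was not tested.

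The subcluster tables carry no limits, so every member has a value there. A member was counted lower at -0.25 or below and higher at 0.25 or above, if 1 of the libraries had it in 25% of cells or more, which is called detected below. Subcluster 0, the epicardial or IGFBP fibroblasts of the study, had 8 members lower and 6 higher of 80 detected, beside 9.87% and 12.5% of all genes. The member median was -0.01 and that of all genes 0.01. Subcluster 3, the proliferating fibroblasts, had 5 lower and 3 higher of 80, beside 15.1% and 13.8% of all genes, with a median of 0.00 against -0.01.

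Subclusters 4 and 5 had opposite directions. In subcluster 4, the matrifibrocytes, 30 of 80 members were lower (37.5%) and 5 higher (6.25%), beside 19.5% and 25.2% of all genes. The median was -0.15 against 0.03. Shares of the library labelled depleted moved in steps of 10 points in this table. In subcluster 5, the secretory myofibroblasts, 9 of 81 were lower (11.1%) and 30 higher (37%), beside 23.5% and 20.3% of all genes, with a median of 0.17 against -0.01. Shares in subcluster 5 moved in steps of 4.3 to 4.4 points in control and 4.7 to 4.8 points in the other library. Of the 79 members detected in all 4 subclusters, 67 (84.8%) had a higher log2 fold change in subcluster 5 than in subcluster 4. Over all 7080 genes detected in all 4 this share was 46.6%. The median difference was 0.28 for members and -0.04 for all genes. Both subclusters come from the same 2 libraries.

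The members are detected in more cells than most genes, and against genes of like detection the share of members lower in subcluster 4 was near the background. Among genes present in at least 90% of cells of both libraries, 23 of 65 members were lower (35.4%) beside 33.3% of all, and 3 were higher beside 13%. The medians were then -0.14 for members and -0.12 for all, compared with -0.15 and 0.03 without this limit. In subcluster 5, 24 of 64 were higher (37.5%) beside 23.8% of all, and 7 lower beside 27.4%. The medians in subcluster 5 were 0.19 and -0.04. For genes so detected in both subclusters, 55 of 62 members (88.7%) had a higher log2 fold change in subcluster 5 than in 4, beside 59.5% of all. These backgrounds were chosen after seeing the data.

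**Figure D3:**
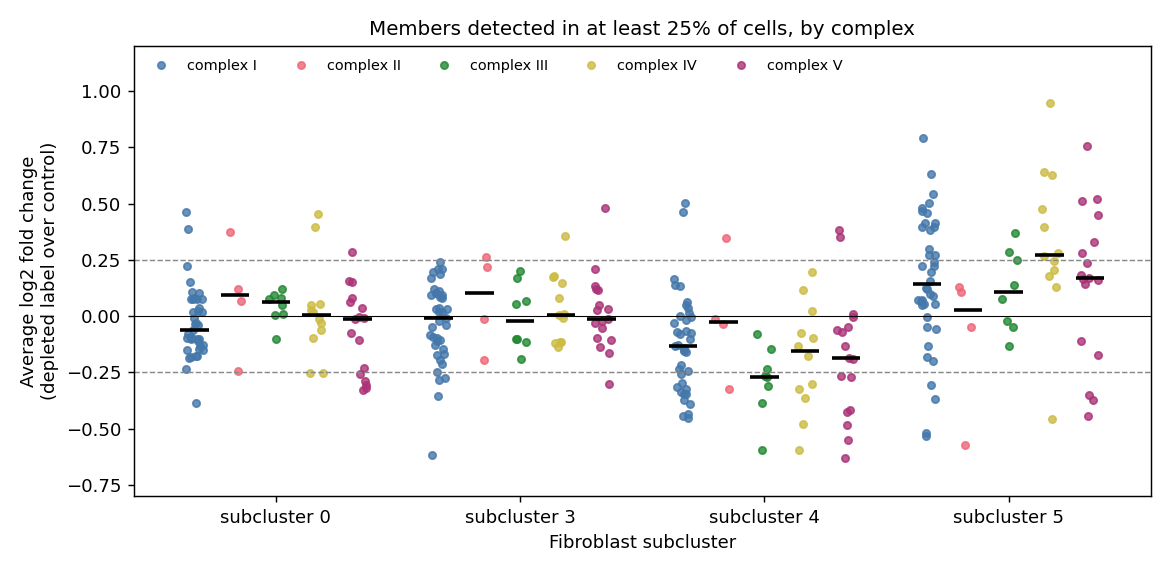
Average log2 fold change of each member detected in at least 25% of cells (points), by complex and fibroblast subcluster, with the median of each complex (bars) and the limits of 0.25 (dashed). Complexes I, III, IV and V have medians between -0.27 and -0.13 in subcluster 4, and between 0.11 and 0.27 in subcluster 5.

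Every complex had a lower median in subcluster 4 than in subcluster 5. In subcluster 4 the medians of complexes I, II, III, IV and V were -0.13, -0.02, -0.27, -0.16 and -0.19. In subcluster 5 they were 0.14, 0.03, 0.11, 0.27 and 0.17. All 8 members of complex III were below 0 in subcluster 4, from -0.60 to -0.08, beside 44.7% of all genes detected there. Of these 8, 5 were counted lower, beside 19.5% of all genes and 33.3% of those in at least 90% of cells of both libraries. Detection was close to complete: the median member was found in 99.3% of control cells in subcluster 0 and in 100% in the other 3. For complex II it was lower, at 86.6%, 91.6%, 87.5% and 82.6% of control cells in subclusters 0, 3, 4 and 5.

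In subcluster 4 the lowest members were Atp5g1 (-0.63, detected in 100% of cells of both libraries) and Uqcrfs1 (-0.60, from 87.5% to 80%). The highest were Ndufa10 (0.50, 90% in both) and Ndufb4c (0.46, from 32.5% to 50%). In subcluster 5 Cox7a2l was highest (0.95, from 95.7% to 100%), followed by Ndufb5 of complex I (0.79, 100% in both). Sdhc (-0.57, from 87% to 81%) and Ndufab1, the acyl carrier protein bound to complex I (-0.53, from 100% to 95.2%), were lowest. In subcluster 0 the ends were Ndufa12 (-0.39) and Atp5j2 (-0.33) below and Ndufb4c (0.46) and Cox6b2 (0.45) above. In subcluster 3 they were Ndufb4 (-0.62) and Ndufs7 (-0.35), which carries an iron-sulphur cluster next to the quinone, below, and Atp5k (0.48) and Cox6b2 (0.36) above.

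Subunits at the catalytic and electron-transfer sites had mixed directions. Ndufs1 and Ndufv1, core subunits of complex I, had log2 fold changes in subclusters 0, 3, 4 and 5 of -0.24, -0.10, -0.24 and -0.18, and of 0.08, -0.10, 0.05 and 0.00. Ndufs1 is listed in no cluster table. Uqcrc1 had 0.01, 0.20, -0.27 and -0.13, and Uqcrfs1 0.12, 0.05, -0.60 and 0.28. The catalytic beta subunit Atp5b was lower in 3 subclusters and below 0 in the other, at -0.29, -0.17, -0.42 and -0.37, while the alpha subunit Atp5a1 had -0.11, 0.12, -0.19 and 0.18. The products of Atp5a1 and Atp5b form 1 hexamer. Both were detected in at least 99.3% of cells in each subcluster.

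Complex II, which is also an enzyme of the citric acid cycle, had members on both sides of 0. Sdha, its flavoprotein, had log2 fold changes of 0.37, -0.01, 0.35 and 0.13 in subclusters 0, 3, 4 and 5, Sdhb 0.07, 0.22, -0.32 and -0.05, Sdhc 0.12, 0.26, -0.04 and -0.57, and Sdhd -0.25, -0.20, -0.01 and 0.11. No subcluster had all 4 on 1 side of 0. Sdhd was detected in 88.3% of control and 71.9% of depleted-label cells of subcluster 0. In subcluster 5 these shares were 69.6% and 81%.

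Over the 4 subclusters, 10 of the 79 members detected in all were below 0 (12.7%) and 7 above 0 (8.86%) throughout. Over all 7080 genes the shares were 9.53% and 9.15%, close to those of the members, so the members named next describe the ends only. Those below were Atp5b, Atp5g3, Atp5pb, Cox6a1, Ndufa12, Ndufab1, Ndufb4, Ndufs1, Ndufs4 and Ndufs7. Those above were Atp5k, Cox5a, Cox6c, Ndufa3, Ndufa6, Ndufb1 and Ndufb4c. Ndufa12 was at -0.39, -0.27, -0.44 and -0.31 in subclusters 0, 3, 4 and 5 and was detected in at least 95.2% of cells in each. Cox6a1 was at -0.25, -0.11, -0.59 and -0.46. Atp5k was at 0.15, 0.48, 0.35 and 0.45, and Cox6c at 0.39, 0.17, 0.12 and 0.63. Cox6c, Ndufa3, Atp5k and Ndufb1 were also the members with the most higher listings, in 8 of the 18 cluster tables each. The subclusters are parts of cluster 5, but most of those 8 tables hold other cells.

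Isoforms known from other tissues were also measured. Complex IV subunit IV has a general form, Cox4i1, and a form of lung and oxygen-sensing cells, Cox4i2. Cox4i1 was detected in 100% of cells of every subcluster in both libraries, with log2 fold changes of -0.25, -0.01, -0.30 and 0.47 in subclusters 0, 3, 4 and 5. Cox4i2 was found in 0%, 3.3%, 0% and 13% of control cells and in 0%, 4.3%, 0% and 28.6% of depleted-label cells. Ndufa4l2, a low-oxygen paralogue of Ndufa4, was found in 4.8%, 3.3%, 10% and 47.8% of control cells and 6.2%, 8.7%, 10% and 71.4% of depleted-label cells. Both were therefore highest in subcluster 5, where their log2 fold changes were 0.64 and 0.41. Both are also known from mural cells. Of 4 mural markers, the summed share in subcluster 5 was 56.5% in control and 4.8% in the library labelled depleted, with 3 of the 4 at 0 in the latter. The part of mural cells in the Cox4i2 and Ndufa4l2 values was not tested.

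Of the muscle isoforms, Cox6a2 was found in 6.9%, 0%, 2.5% and 8.7% of control cells of subclusters 0, 3, 4 and 5 and in no cell of the library labelled depleted. Cox7a1 was found in 18.6%, 20%, 17.5% and 0% of control cells and 18.8%, 8.7%, 10% and 4.8% of the others. Their general counterparts Cox6a1 and Cox7a2 were detected in at least 95.7% of cells. Cardiomyocyte markers also gave a lower summed share in the library labelled depleted, 100.7% and 53.1% in subcluster 0 and 102.5% and 60% in subcluster 4, over 11 markers of which 8 were at 0 in that library in each. The part of cardiomyocyte RNA in the Cox6a2 shares was not tested. Cox6a2 had 1 listing, in cluster 15, where it was detected in 100% of control cells and 90.9% of depleted-label cells (-0.74). Cluster 15 lists none of the cardiomyocyte markers, so they have no value there, and their part in this listing was not tested. Cox6b2, known as a testis isoform, was detected in 56.6% and 68.8% of cells in subcluster 0 (0.45), and Cox6b1 in 100% of both (-0.10). Cox8a was at -0.06, -0.14, -0.36 and 0.28 in the 4 subclusters, and Ndufa4 at -0.08, -0.20, -0.13 and 0.10.

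Near-identical copies complicate some members. At 90% identity or more, 36 members had an annotated pseudogene copy, and for 6 (Cox7b, Cox7c, Ndufb11, Ndufb4, Ndufc1 and Ndufs5) a copy had values of its own. By fold change Ndufb4 was below 0 and Ndufb4c above 0 in every subcluster, with -0.18 and 0.46 in subcluster 0, -0.62 and 0.21 in subcluster 3, -0.45 and 0.46 in subcluster 4, and -0.06 and 0.39 in subcluster 5. By share of cells the opposition held in subclusters 0 and 4 and not in 3 and 5. In subcluster 0 the share went from 69.7% to 59.4% for Ndufb4 and from 40% to 65.6% for Ndufb4c, and in subcluster 5 both were higher, from 65.2% to 76.2% and from 47.8% to 66.7%. In subcluster 4 the share of cells went from 72.5% to 40% for Ndufb4 and from 32.5% to 50% for Ndufb4c. In subcluster 3 both shares were lower, from 86.7% to 60.9% and from 66.7% to 60.9%. Clusters 10 and 15 list the same opposition, with -0.46 and 0.29 in cluster 10 and -0.27 and 0.29 in cluster 15. A read inside the coding stretch printed above cannot be assigned to either gene by its letters, so the split between them is uncertain.

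A pair of copies outside the member rule was also above 0 in each subcluster. Ndufs5-ps, 99.4% identical to Ndufs5 over 319 bases, was found in more depleted-label cells in all 4, with shares of cells of 19.3% and 40.6% in subcluster 0, 30% and 47.8% in 3, 17.5% and 40% in 4, and 13% and 42.9% in 5. Ndufs5 itself had log2 fold changes of -0.10, 0.03, -0.39 and 0.46. Gm12338, 98% identical to Cox7c over 196 bases, was at 0.16, 0.11, 0.16 and 0.35, and Cox7c at -0.03, 0.01, -0.32 and 0.27. These 2 copies and Ndufb4c were thus above 0 in all 4 subclusters, whichever way the parent gene went. The remaining 4 copies were detected in at most 17.5% of cells.

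**Figure D4:**
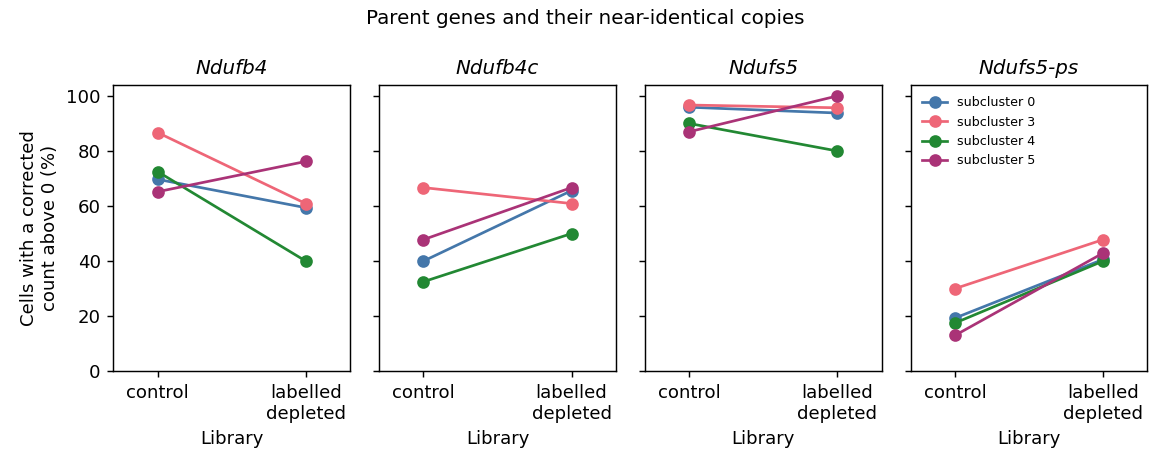
Percent of cells with a corrected count above 0 in control and in the library labelled depleted, for Ndufb4, Ndufs5 and their copies in fibroblast subclusters 0, 3, 4 and 5 (lines). The share of Ndufs5-ps is higher in the library labelled depleted in all 4 subclusters, and Ndufb4c is higher in 3 of 4.

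Other genes of energy metabolism and of translation give the setting. Over the cluster tables, 48 of 62 listings of glycolysis genes were lower (77.4%), as were 383 of 479 listings of cytosolic ribosomal protein genes (80%) and 86 of 135 of mitochondrial ribosomal protein genes (63.7%). Citric acid cycle genes had 7 of 21 lower (33.3%) and respiratory assembly factors 27 of 42 (64.3%). Regulators of respiratory genes had 4 of 8 lower, and of 6 listings of cytochrome c (Cycs) and its haem lyase (Hccs) 3 were lower. The complex III haem subunit Cyc1 was not listed. Members (48.8% lower) lay between the citric acid cycle genes and the other lists. None of the symbols searched for mitochondrially encoded genes was found in the tables, so the partner subunits of complexes I, III, IV and V have no values here. Whether they stand under other symbols was not tested.

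In the subclusters, the medians of members and of cytosolic ribosomal protein genes lay on the same side of 0 in 4 and 5. Of 87 ribosomal protein genes detected, 57 were lower in subcluster 4 and 70 higher in subcluster 5, with medians of -0.33 and 0.46. In subcluster 0, 35 were lower with a median of -0.23, while the members stayed at -0.01. In subcluster 3 the ribosomal median was 0.04. Mitochondrial ribosomal protein genes had medians of -0.03, -0.04, -0.08 and 0.13 in subclusters 0, 3, 4 and 5, in the order of the members in 4 and 5. Glycolysis genes did not follow in subcluster 5, where their median was -0.10 with 6 of 15 lower and 2 higher. Whether the shift of ribosomal protein genes has a part in the member values was not tested.

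**Figure D5:**
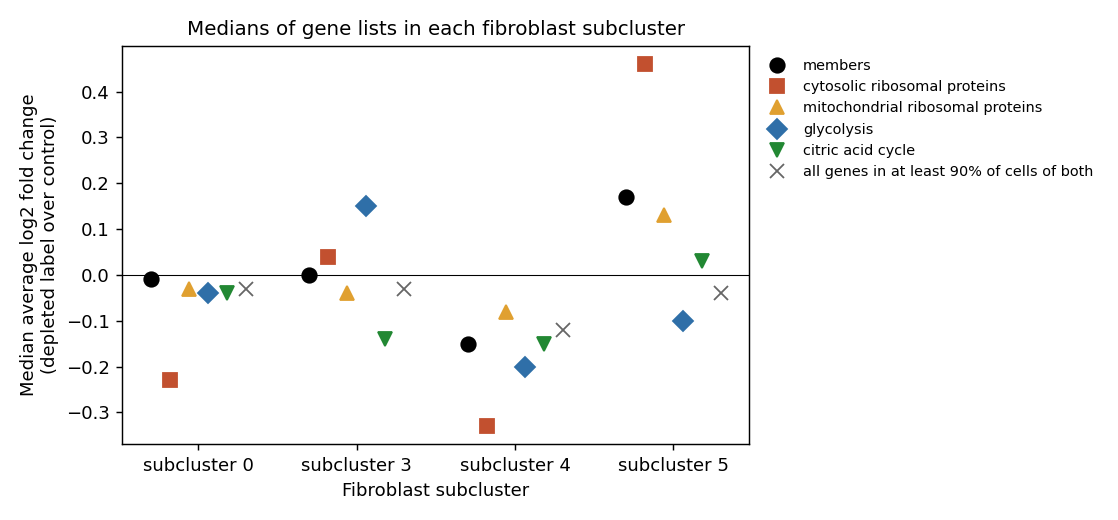
Median average log2 fold change of the members and of 4 other gene lists in each fibroblast subcluster, beside all genes found in at least 90% of cells of both libraries (crosses). Members and cytosolic ribosomal protein genes lie at -0.15 and -0.33 in subcluster 4 and at 0.17 and 0.46 in subcluster 5, while glycolysis genes are below 0 in both.

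Erythroid transcripts, from cells that the lysis and the sort should remove, were lower in the library labelled depleted in every subcluster, with summed shares over 5 markers of 98.5% and 12.4% in subcluster 0, 119.9% and 21.6% in 3, 97.5% and 0% in 4, and 60.7% and 0% in 5. Their part in the member values was not tested.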

How the data were processed

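The 2 libraries of interstitial cells were processed by the authors with Cell Ranger 6.1.1 on GRCm39 plus reporter sequences, combined without depth normalisation, and normalised in Seurat by SCTransform with the mitochondrial share regressed out. The fibroblast cluster was normalised and clustered again for the subclusters. For each cluster the authors deposited the fraction of cells of each library with a corrected count above 0, printed here as a percent, and an average log2 fold change, the difference in log2 of the mean value plus 1 between the library labelled depleted and control. The pseudocount of 1 pulls low genes towards 0. The deposited p-values, computed over cells, were not used. Doublet removal is not described, and cluster 16 and subclusters 1 and 2 were not analysed here. The deposited fold change is the comparison column that the member rule asks for, and the tables state no cell counts behind it.

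Members, gene lists and markers were chosen with earlier results of these data known. Values were counted with Python 3.11.15 and pandas 2.3.3 in each table, with limits of 0.25 (log2) and 25% of cells, beside the same counts over all genes. The scripts were tested on simulated data. Named were members listed in cluster 5, the 5 most often lower and the 5 most often higher over clusters, the 2 lowest and 2 highest per subcluster, complex II, tissue isoforms, catalytic and electron-transfer subunits and the targeted genes. The values of 1 member under this rule are not reported here. Other members are named where their values illustrate a table, chosen after seeing them. All 84 symbols matched RefSeq and 82 matched GENCODE vM39, whose GRCm39 coordinates are used for genes. Copies were sought with blastn 2.17.0 (at least 90% identity over 100 bases and 60% of the copy). No test was made with 1 library per group.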

Additional observations from a re-analysis of the deposited data

Results flagged for a closer look

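In all, 4 members were at or below -0.5 in 1 cell population and at or above 0.5 in another. These are 4.82% of the 83 members detected in at least 25% of cells of 1 library or both in some table, beside 3.8% of all 11355 such genes, so the share is near the background. This limit was chosen after seeing the data. The difference was not tested, as there is 1 library per group, and the subclusters were normalised apart from the clusters. Cox7a2l had a log2 fold change of -0.54 in cluster 13 (90.5% of control cells and 76.1% of depleted-label cells) and 0.95 in subcluster 5 (95.7% and 100%). Atp5g2, a gene for the c subunit of ATP synthase, had -0.52 in cluster 14 and 0.76 in subcluster 5, with 100% of cells in both libraries each time. Atp5l had -0.60 in cluster 18 (100% and 82.4%) and 0.51 in subcluster 5 (100% in both). Atp5md had -0.57 in cluster 18 (72.7% and 41.2%) and 0.63 in cluster 10 (81.8% and 100%).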

How the results depend on the processing

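No paired analysis was possible because there was 1 library per genotype. Of the listings over the cluster tables, 11 lower and 18 higher remained at a size limit of 0.5 and 0 and 0 at a limit of 1. Leaving out each cluster table in turn gave 97 to 117 lower and 91 to 123 higher. In the subclusters (0, 3, 4 and 5 in order), a limit of 0.5 gave 0, 1, 4 and 3 members lower and 0, 0, 1 and 10 higher, and a limit of 1 gave 0 in each. The log2 ratio of shares gave 3, 2, 4 and 0 lower and 2, 1 and 3 higher in subclusters 0, 4 and 5. Among members in at least 90% of cells of both libraries, 3, 1 and 3 were higher in subclusters 0, 3 and 4. Centring on all genes, dropping the detection limit and asking for 50% of cells moved no count by more than 1.5 times. This covers the counts in the subclusters and over the cluster tables. The same holds for leaving out members with a copy in the tables, or clusters 6, 9 and 10. It also holds for leaving out members of other tissues or outside the strict complexes, such as Cox7a2l and Ndufab1. Of the values of single members, medians and shares by cluster under other settings, 31 moved and 111 did not. By cluster, the percent of members lower moved on centring from 100 to 55.6 in cluster 7 and from 7.14 to 0 in cluster 11. In cluster 10 it moved from 16.7 to 39.1 by the sign of the ratio of shares. At a size limit of 0.5 it moved in clusters 10 and 17 from 16.7 and 11.1 to 0. In cluster 12 it moved from 91.7 to 100 without members of other tissues or outside the strict complexes, which left out Cox7a2l. Among widely detected members the shares are near 100% in both libraries, which limits what a ratio of shares can show. The tables state no number of cells, so no error is given. The widely spaced shares of clusters 10, 17 and 18 and of subclusters 4 and 5 limit what these can show.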
